A study of Homo sapiens with 12 samples.

Results

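The cells compared were HT1080, an established human fibrosarcoma line that carries a mutant NRAS allele, and they had received either an siRNA against that mutant (siQ61K) with DMSO or a control siRNA (siNC) with poly(dA:dT). The first group, siQ61K DMSO, is the knockdown of mutant NRAS alone, and the second, siNC poly(dA:dT), is the stimulation with synthetic double-stranded DNA alone. Each had 3 RNA-seq libraries, 6 of the 12 in the series. The 3 libraries of siNC DMSO, which had neither, are given as context, and the 3 of siQ61K poly(dA:dT) entered only the estimate of the spread. The direct question is how cells with less mutant NRAS differ from cells given an interferon-inducing DNA. Knockdown and DNA differ at once between the groups, so no difference below can be assigned to one of them from this contrast. All groups are of 1 cell line with 1 siRNA against mutant NRAS and 1 control siRNA. The sources used here give no dose, time or means of delivery for the DNA, and do not say whether libraries stand for separate cultures. The p-values therefore measure only the spread between libraries, which may be technical.

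NRAS is a small GTPase of the plasma membrane. In its active state it binds RAF kinases and switches on the MEK and ERK kinases, whose target genes include immediate-early transcription factors, the phosphatases and Sprouty proteins that dampen the pathway, and cell cycle genes. Poly(dA:dT) is a synthetic double-stranded DNA of A and T bases that is bound in the cytosol by cGAS, which signals through STING, and is transcribed by RNA polymerase III into RNA that RIG-I detects. Both routes end in type I interferon, which acts through its receptor, STAT proteins and IRF9 on the interferon-stimulated response element (ISRE) of antiviral genes.

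Values are TPM, a share of all transcripts that takes their length into account. Of 55243 genes with a symbol of their own, 13752 reached 1 TPM in 3 or more of the 6 libraries and were tested. A gene under 1 TPM in all 3 libraries of 1 group passed only through the other group. For such a gene the minimum alone fixed the direction and the lack of overlap. Genes of this kind named below include BST2, BMF, PDGFB, MMP24, AGT, LINC02154 and EIF4A3. A gene was called when limma's moderated test on log2(TPM + 1) gave a Benjamini-Hochberg adjusted p below 0.05 over all genes tested. Each log2 difference is siQ61K DMSO minus siNC poly(dA:dT) on that scale, which understates changes of genes with low values, and its error is the standard error (SE) of the model. The depth of the libraries is unknown, since TPM keeps none. The exact permutation test over 3 against 3 libraries cannot go below p = 0.1, so single genes rest on the fit across all genes. Between libraries, log2(TPM + 1) correlated at 0.975 to 0.985 within siQ61K DMSO, at 0.976 to 0.981 within siNC poly(dA:dT) and at 0.947 to 0.961 across the groups.

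NRAS itself had 15.5, 15.2 and 19.9 TPM in the siQ61K DMSO libraries, against 42.97, 45.9 and 51.7 TPM in the siNC poly(dA:dT) libraries. All 3 siQ61K DMSO values were lower, with no overlap, and the log2 difference was -1.43, SE 0.16, adjusted p = 5.33e-05. The siNC DMSO libraries had 59.6, 60.6 and 41.4 TPM, so the siNC poly(dA:dT) values stood beside those of the cells with neither treatment. TPM does not separate the mutant allele from the other one. The close relative HRAS differed by -0.035, with a 95% interval of -0.32 to 0.25.

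The fit called 3190 of the 13752 genes, 23.2% of those tested. Of these, 1888 were higher with siQ61K DMSO (13.7%) and 1302 lower (9.47%), so the higher calls made up 59.18% of the calls. Every count of called members of a gene list below is to be read against these shares of all genes tested. Counts after the correction for GC content and length, described at the end, are to be read against 12.9% higher and 14.1% lower. The groups did not overlap in 3131 of the called genes, a count among genes that the test had already picked. It is no further support for the calls, since genes not called, such as CDKN1A, could also be without overlap. A difference of more than 1 on the log2 scale was found for 780 called genes, 513 higher and 267 lower, and one of more than 2 for 56, 44 higher and 12 lower. The 95% interval lay wholly within 0.5 of no difference for 2738 genes (19.9%), the genes whose levels can be called alike in the 2 groups at this precision. Among them, 14 were also called higher or lower, with a small difference. For 7838 genes neither held. The median of all genes tested was 0.080, and median-of-ratios scaling moved it to 0.0042. Under that scaling the split was 1651 higher and 1792 lower, and with quantile normalization it was 1749 and 1759, so the excess of higher calls depends on the scaling. Differences also moved with base composition, as described with the GC content of the transcripts at the end.

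**Figure D1:**
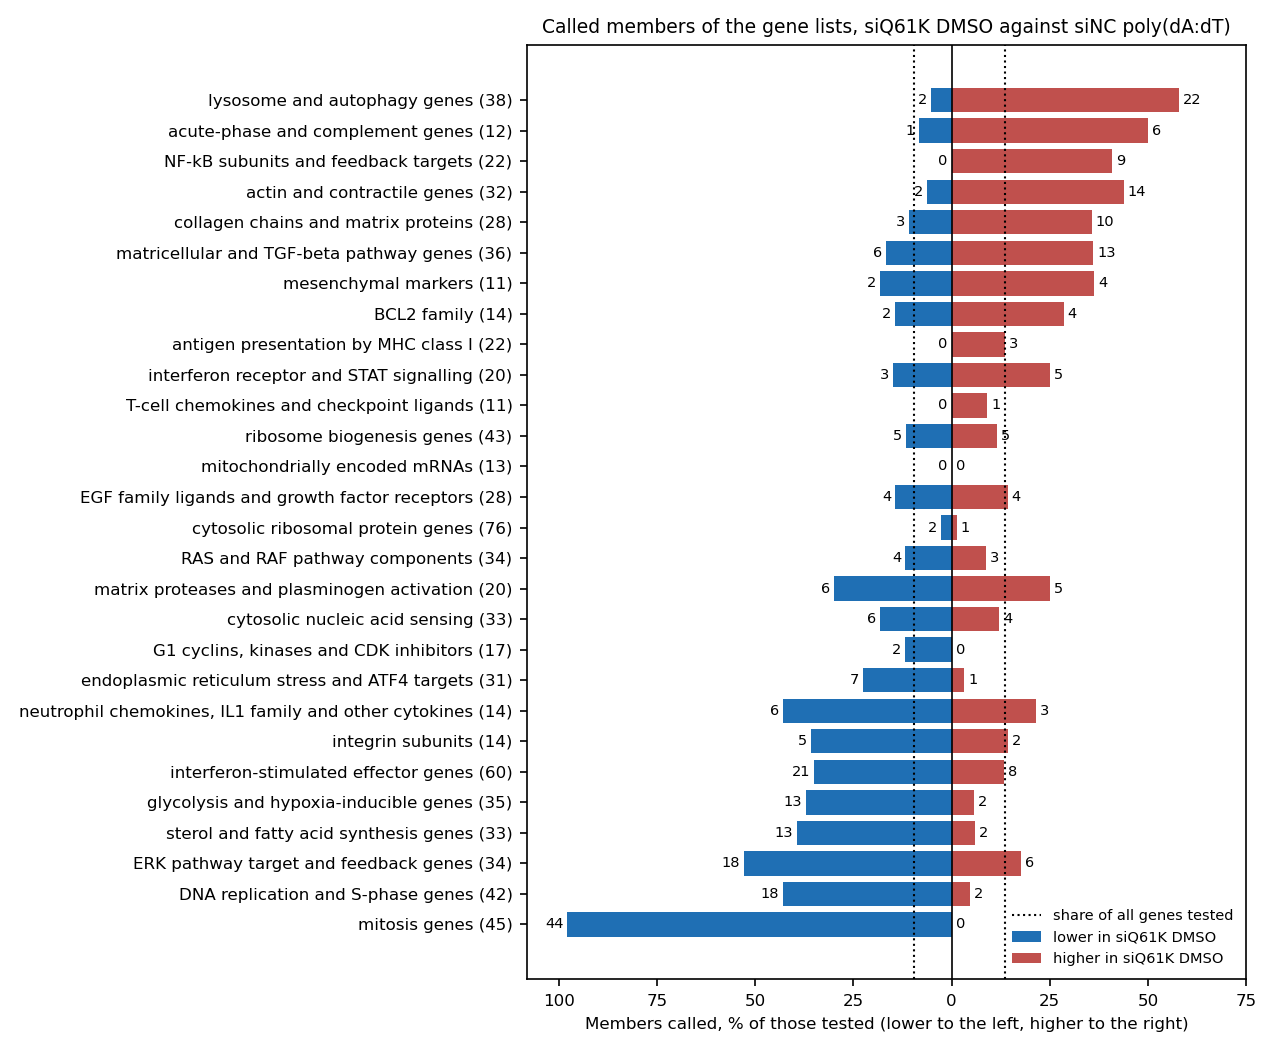
Members called in 28 gene lists with at least 10 tested members, as the percentage of tested members (number in parentheses), for siQ61K DMSO against siNC poly(dA:dT). Bars to the right are members higher with siQ61K DMSO and bars to the left members lower, with their counts, and dotted lines mark the shares over all genes tested (13.7% higher, 9.47% lower). Mitosis genes reach farthest to the left with 44 of 45 members lower, and lysosome and autophagy genes farthest to the right with 22 of 38 higher.

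Interferon-stimulated genes that differed were lower in siQ61K DMSO cells than in siNC poly(dA:dT) cells more often than higher. Of 60 tested interferon-stimulated effector genes, 21 were lower with siQ61K DMSO, 8 were higher and 31 were not called, and 9 had intervals within 0.5. Over all genes tested, 9.47% were lower and 13.7% higher, so higher members were no more frequent in the list than among all genes. The list's median log2 difference was -0.28, against 0.080 for all genes tested. IFIT1, which binds viral RNA that lacks the host cap structure, had 19.4, 20.9 and 20.2 TPM in the siQ61K DMSO libraries, against 43.1, 31.4 and 48.5 TPM in the siNC poly(dA:dT) libraries. The siNC DMSO libraries had 6.4, 7.15 and 5.98 TPM, so the siQ61K DMSO values lay between those of the other groups without overlap. The log2 difference between siQ61K DMSO and siNC poly(dA:dT) was -0.97, SE 0.15, adjusted p = 0.000623. Against siNC DMSO, IFIT1 differed by 1.5 (adjusted p = 2.14e-05) in siQ61K DMSO and by 2.46 (adjusted p = 2.33e-06) in siNC poly(dA:dT), 2 comparisons that share the siNC DMSO libraries.

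IFI6, an antiviral protein of the endoplasmic reticulum and mitochondria, showed the same order, with 58.7, 63.5 and 50.8 TPM in the siQ61K DMSO libraries, against 119, 83.9 and 84.4 TPM in the siNC poly(dA:dT) libraries and 11.3, 16.5 and 14.03 TPM in siNC DMSO. Its difference between the first 2 groups was -0.71, SE 0.16, adjusted p = 0.00675. OAS1, which makes the second messenger that activates RNase L, had 8.16, 7.97 and 10.5 TPM with siQ61K DMSO, against 16.1, 15.2 and 20.5 TPM with siNC poly(dA:dT) (-0.88, SE 0.20, adjusted p = 0.00773). OAS1 stood at 3.85, 4.47 and 5.85 TPM in siNC DMSO, below both. For IFIT1, IFI6 and OAS1 the siQ61K DMSO cells were therefore higher than cells with neither treatment and lower than cells given the DNA, in every library.

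BST2 and IFITM1 had another pattern. BST2, also called tetherin because it holds budding virus at the cell surface, had 0.514, 0.997 and 0.503 TPM in the siQ61K DMSO libraries, against 6.31, 4.65 and 9.66 TPM in the siNC poly(dA:dT) libraries, and 2.59, 1.78 and 2.32 TPM in siNC DMSO. The siQ61K DMSO values were the lowest of the 3 groups, and the difference of -2.20, SE 0.30, adjusted p = 0.00027 was among the 10 lowest of all genes by the rule for naming. IFITM1, which blocks fusion of viral membranes, had 18.1, 18.3 and 12.5 TPM with siQ61K DMSO, against 54.4, 38.03 and 44.9 TPM with siNC poly(dA:dT) (-1.44, SE 0.20, adjusted p = 0.000264). It stood at 17.4, 13.9 and 12.3 TPM in siNC DMSO, in the range of the siQ61K DMSO libraries. IFITM2 was lower by a smaller amount (-0.42, SE 0.11, adjusted p = 0.0174), and IFITM1, IFITM2 and IFITM3 are closely similar genes between which reads may have been split.

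Other interferon-stimulated genes were not called, or were higher with siQ61K DMSO. IFI27, one of the most inducible interferon genes, had 53.2, 51.5 and 28.6 TPM in the siQ61K DMSO libraries, against 50.6, 29.5 and 42.6 TPM in the siNC poly(dA:dT) libraries, and the groups overlapped (0.10, SE 0.26, adjusted p = 0.816). Both were above siNC DMSO, where IFI27 had 14.2, 8.99 and 15.5 TPM. IFITM3, the most abundant member of the list, averaged 1019 ± 55.7 TPM with siQ61K DMSO and 931 ± 93.1 TPM with siNC poly(dA:dT) (SD, n = 3 each), and its 95% interval of -0.11 to 0.38 lay within 0.5. MX1, an antiviral GTPase, was not called (-0.26, SE 0.21, adjusted p = 0.389). ADAR, the RNA-editing enzyme, was not called either (0.14, SE 0.18, adjusted p = 0.606). The 8 higher members included TRIM26, a ubiquitin ligase, with 13.5, 11.3 and 16.2 TPM with siQ61K DMSO, against 5.33, 6.905 and 7.099 TPM with siNC poly(dA:dT) (0.97, SE 0.24, adjusted p = 0.012). APOL1, a lipoprotein-associated factor that kills trypanosomes, had 14.9, 13.03 and 19.3 TPM with siQ61K DMSO, against 7.13, 8.7 and 8.31 TPM with siNC poly(dA:dT) (0.87, SE 0.22, adjusted p = 0.0114). LGALS3BP, a secreted glycoprotein (0.65, adjusted p = 0.00299), and UBE2L6, the conjugating enzyme for the ubiquitin-like ISG15 (0.66, adjusted p = 0.00109), were higher. The siNC poly(dA:dT) values of TRIM26 and APOL1 lay among or close to the siNC DMSO values, 4.52, 7.02 and 7.29 TPM for TRIM26 and 5.74, 8.7 and 8.43 TPM for APOL1. Among the abundant members, SP100, a nuclear body protein, was lower (-0.54, adjusted p = 0.00204). PLSCR1 (-0.38, adjusted p = 0.0422), LY6E (-0.35, adjusted p = 0.0261) and CNP, which was higher (0.53, adjusted p = 0.0305), were called with smaller differences, and the calls of PLSCR1 and CNP were lost after the GC content and length correction (-0.22, adjusted p = 0.103 and 0.27, adjusted p = 0.109). Leaving out 1 library also ended these small calls, whichever it was for PLSCR1, any but siNC poly(dA:dT) replicate 1 for CNP, any but siNC poly(dA:dT) replicate 3 for LY6E, and siQ61K DMSO replicate 2 or 3 or siNC poly(dA:dT) replicate 1 for IFITM2. ISG15 and CXCL10, an interferon-induced chemokine, stayed under the minimum for testing. ISG15 was listed at 0, 0.67 and 0 TPM with siQ61K DMSO, against 0.414, 1.02 and 1.72 TPM with siNC poly(dA:dT). CXCL10 was listed at 0.545, 0.277 and 0.331 TPM with siQ61K DMSO, against 1.204, 0.154 and 0.697 TPM with siNC poly(dA:dT).

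**Figure D2:**
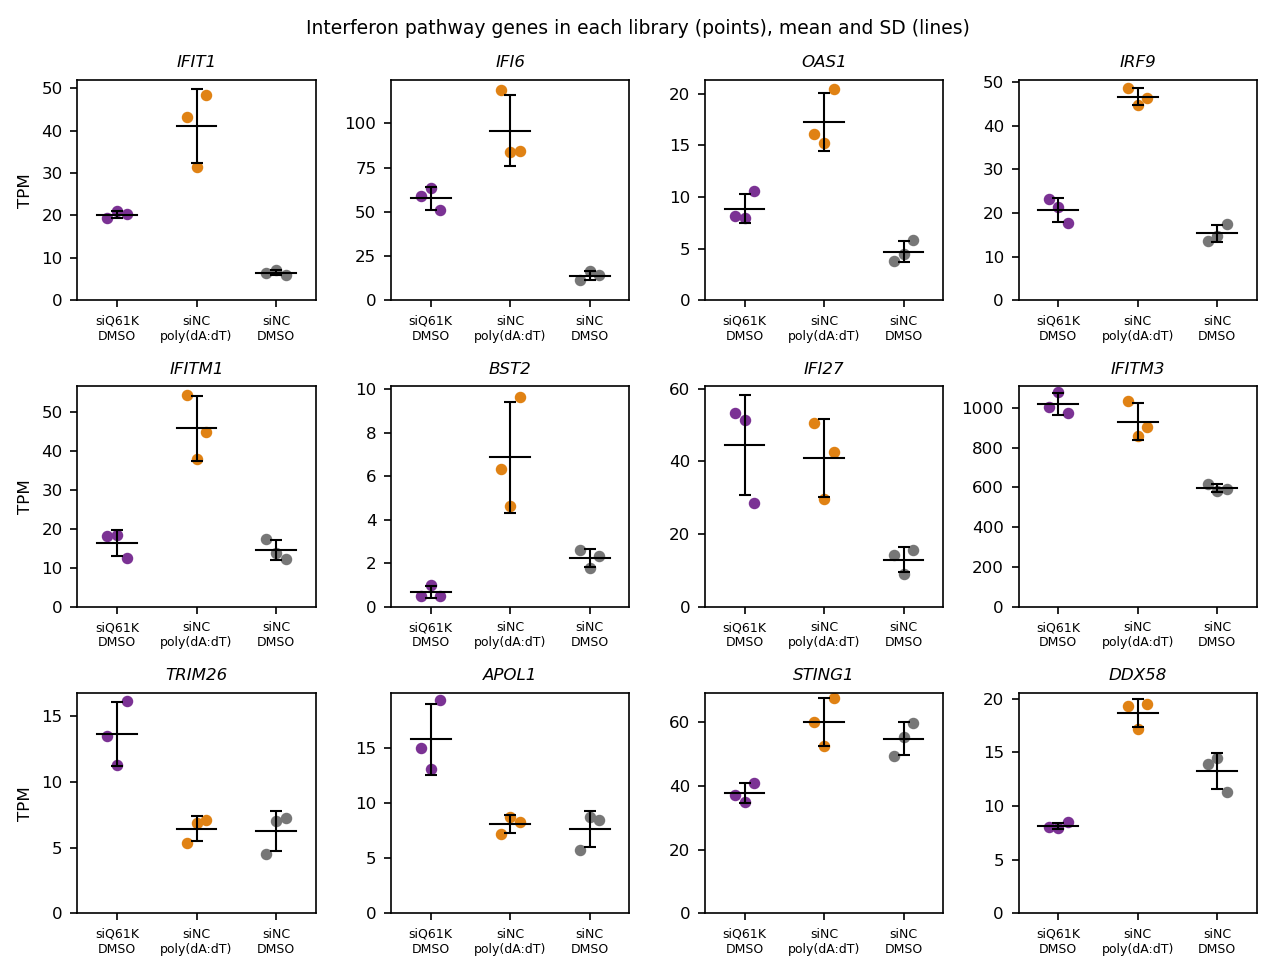
TPM of 12 interferon pathway genes in each library (points) with the mean and SD of each group (lines), n = 3 per group, on linear axes from 0. In IFIT1, IFI6 and OAS1 the siQ61K DMSO libraries lie between the other groups, in BST2, STING1 and DDX58 they are the lowest, in IFI27 they overlap the siNC poly(dA:dT) libraries, and in TRIM26 and APOL1 they are the highest.

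The promoters of these genes are shown because the ISRE is what type I interferon signalling reads. The 250 bases before the transcription start came from RefSeq (GRCh38.p14), which had an entry for 9990 of the 13752 tested genes and for 46 of the 60 tested interferon-stimulated genes. Each was searched on both strands for the ISRE core (GAAA, then any 2 bases, then GAAA), for TTTGAA (the cell cycle homology region, CHR), for CCAAT and for CACGTG (an E-box). Matches of 2 of the 4 motifs shared bases in 11 promoters. The ISRE core was found in 24 of the 46 interferon-stimulated promoters (52.2%), against 2.35% of the promoters of all tested genes and 3.07% of all 27305 in the RefSeq table. It was in 11 of 18 promoters of members lower with siQ61K DMSO, in 2 of 6 of members higher and in 11 of 22 of members not called. The 4 promoters below are of IFIT1 (chr10:89392373-89392622, plus strand), IFI6 (chr1:27672193-27672442, minus strand) and BST2 (chr19:17405631-17405880, minus strand), all lower with siQ61K DMSO, and of IFI27 (chr14:94110486-94110735, plus strand), which was not called. Capitals mark the ISRE core on either strand, and each sequence runs 5′ to 3′ toward the start of its gene.
IFIT1: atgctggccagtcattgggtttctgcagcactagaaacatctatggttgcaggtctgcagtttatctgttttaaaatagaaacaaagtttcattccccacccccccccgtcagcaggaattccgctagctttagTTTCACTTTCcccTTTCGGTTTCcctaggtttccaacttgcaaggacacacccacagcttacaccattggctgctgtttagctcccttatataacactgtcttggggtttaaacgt
IFI6: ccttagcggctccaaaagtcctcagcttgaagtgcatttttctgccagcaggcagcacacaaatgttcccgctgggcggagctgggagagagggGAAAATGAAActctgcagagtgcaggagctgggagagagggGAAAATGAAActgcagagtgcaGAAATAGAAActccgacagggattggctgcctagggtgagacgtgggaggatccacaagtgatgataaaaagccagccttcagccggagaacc
BST2: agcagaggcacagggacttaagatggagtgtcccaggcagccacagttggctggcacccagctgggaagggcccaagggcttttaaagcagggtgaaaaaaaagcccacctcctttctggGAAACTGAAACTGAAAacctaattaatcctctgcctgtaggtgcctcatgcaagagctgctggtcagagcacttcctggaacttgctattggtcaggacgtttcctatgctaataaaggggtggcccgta
IFI27: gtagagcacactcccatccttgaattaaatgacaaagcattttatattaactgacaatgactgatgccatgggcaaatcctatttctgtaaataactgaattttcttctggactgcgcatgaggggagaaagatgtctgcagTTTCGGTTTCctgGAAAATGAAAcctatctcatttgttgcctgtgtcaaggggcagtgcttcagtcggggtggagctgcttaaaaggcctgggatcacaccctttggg
The first match begins 116 bases before the start in IFIT1, 156 in IFI6, 130 in BST2 and 108 in IFI27. IFI6 holds 3 matches and the others 2 each, which overlap in BST2.

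The signalling proteins between the receptor and the ISRE split in direction. Of 20 tested genes of interferon receptor and STAT signalling, 5 were higher and 3 lower, against 13.7% higher and 9.47% lower over all genes tested. IRF9, the DNA-binding subunit of the interferon-activated STAT complex, had 23.3, 21.3 and 17.8 TPM in the siQ61K DMSO libraries, against 48.7, 44.8 and 46.4 TPM in the siNC poly(dA:dT) libraries, and the difference was -1.14, SE 0.13, adjusted p = 7.63e-05. It stood at 13.6, 14.8 and 17.5 TPM in siNC DMSO. IRF1 (0.95, SE 0.18, adjusted p = 0.00195) and STAT3 (0.93, SE 0.17, adjusted p = 0.00181), a transcription factor of the IL-6 family response, were higher. STAT3 had 51.9, 47.5 and 69.4 TPM with siQ61K DMSO, against 27.2, 27.9 and 31.1 TPM with siNC poly(dA:dT). The list's median was 0.050 and turned to -0.031 under median-of-ratios scaling, -0.0077 under quantile normalization and -0.011 after the GC content and length correction. Without siQ61K DMSO replicate 1 or 3 or siNC poly(dA:dT) replicate 2, 3 of the 20 were higher, and without siQ61K DMSO replicate 1 or siNC poly(dA:dT) replicate 3, 1 was lower.

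The RNA sensor RIG-I, the DNA sensor AIM2 and the adaptor STING were lower with siQ61K DMSO. Of 33 tested genes of cytosolic nucleic acid sensing, 4 were higher and 6 lower, against 13.7% higher and 9.47% lower over all genes tested. The list's median of 0.092 became -0.091 after the GC content and length correction. DDX58, which encodes RIG-I, had 8.02, 7.98 and 8.48 TPM in the siQ61K DMSO libraries, against 19.3, 17.2 and 19.5 TPM in the siNC poly(dA:dT) libraries. Its siNC DMSO values were 13.9, 14.5 and 11.3 TPM, so the siQ61K DMSO cells were the lowest of the 3 groups (difference from siNC poly(dA:dT) -1.10, SE 0.13, adjusted p = 7.24e-05). AIM2, the inflammasome sensor of double-stranded DNA, had 5.39, 5.12 and 3.61 TPM with siQ61K DMSO, against 9.47, 12.1 and 13.7 TPM with siNC poly(dA:dT) (-1.16, SE 0.17, adjusted p = 0.000365). Its siNC DMSO values were 12, 13.02 and 12.5 TPM, so the siNC poly(dA:dT) libraries stood near those of cells with neither treatment. STING1, the adaptor of cGAS, had 37.3, 35.1 and 41.1 TPM with siQ61K DMSO, against 60.3, 52.6 and 67.6 TPM with siNC poly(dA:dT) (-0.65, SE 0.17, adjusted p = 0.0133), and this call was lost without siNC poly(dA:dT) replicate 3. CGAS was near the minimum, at 0.935, 1.29 and 1.09 TPM with siQ61K DMSO, against 1.22, 2.599 and 2.38 TPM with siNC poly(dA:dT), and was not called. IRF3, the factor that turns on the interferon beta gene, was called higher although the groups overlapped (0.57, SE 0.16, adjusted p = 0.0219), and it was not called after the correction (0.34, adjusted p = 0.128). Nor was it called without siQ61K DMSO replicate 1 or 2 or siNC poly(dA:dT) replicate 2 or 3. That correction left 1 higher and 7 lower members in the list, against 12.9% higher and 14.1% lower over all genes. Leaving out any library but siQ61K DMSO replicate 2 left 1 or 2 higher.

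Of 22 tested genes of the MHC class I pathway of antigen presentation, 3 were higher with siQ61K DMSO (13.6%, against 13.7% of all genes tested), none was lower by limma (1 at an unadjusted p below 0.05), and 7 had intervals within 0.5. The 3 higher members were chaperones of the peptide-loading complex, TAPBP (0.80, adjusted p = 0.00143) and CALR (0.56, adjusted p = 0.00355), and PSMB8, an immunoproteasome subunit (0.44, adjusted p = 0.021), which was named after its value was seen. B2M, the light chain, averaged 1788 ± 52.9 TPM with siQ61K DMSO and 1799.6 ± 134 TPM with siNC poly(dA:dT) (SD, n = 3 each), with an interval of -0.20 to 0.19. HLA-B, which shares sequence with the other class I genes, was not called (0.35, SE 0.16, adjusted p = 0.125). After the correction 5 members were higher and 2 lower, 31.8% called against 27.0% of all genes. Among 11 tested T-cell chemokines and checkpoint ligands, 1 was called, the poliovirus receptor PVR, higher (0.61, adjusted p = 0.0471). PVR was not called after the correction (0.38, adjusted p = 0.114), nor when any library but siQ61K DMSO replicate 2 was left out.

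Secreted cytokines differed strongly in both directions. Of 14 tested members of the list of neutrophil chemokines, the IL1 family and other cytokines, 6 were lower and 3 higher. Over all genes tested, 9.47% were lower and 13.7% higher. None of the 14 had an interval within 0.5. IL1B, the fever-inducing cytokine released through inflammasomes, had 39.6, 43.1 and 46.3 TPM in the siQ61K DMSO libraries, against 268, 265 and 304 TPM in the siNC poly(dA:dT) libraries. The difference was -2.67, SE 0.14, adjusted p = 7.8e-08, and siNC DMSO, with 264, 287 and 290.4 TPM, stood with siNC poly(dA:dT). CXCL8, the chemokine that draws neutrophils, had 16.6, 12.3 and 16.8 TPM with siQ61K DMSO, against 78.3, 87.1 and 91.6 TPM with siNC poly(dA:dT) (-2.42, SE 0.17, adjusted p = 1.02e-06). Its siNC DMSO values were 119.9, 97.1 and 78.4 TPM. In the other direction, IL32, a cytokine without a counterpart in mice, had 71.3, 79.9 and 68.4 TPM with siQ61K DMSO, against 5.69, 5.17 and 5.499 TPM with siNC poly(dA:dT) (3.52, SE 0.14, adjusted p = 1.91e-08). Its siNC DMSO values were 4.62, 4.97 and 5.5 TPM. CCL2, the monocyte chemokine, was higher (1.13, SE 0.25, adjusted p = 0.00598). Against siNC DMSO, siNC poly(dA:dT) differed by -0.011 (adjusted p = 0.978) for IL1B, -0.18 (adjusted p = 0.648) for CXCL8, 0.10 (adjusted p = 0.769) for IL32 and 0.11 (adjusted p = 0.855) for CCL2, and siQ61K DMSO by -2.68 (adjusted p = 6.34e-08), -2.60 (adjusted p = 5.52e-07), 3.62 (adjusted p = 1.33e-08) and 1.24 (adjusted p = 0.00245) in the same order of genes.

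NF-kB genes that differed were higher with siQ61K DMSO. Of 22 tested NF-kB subunits and feedback targets, 9 were higher and none lower by limma (1 lower at an unadjusted p below 0.05), with a median of 0.44. The correction for GC content and length left 6 higher and 2 lower, against 12.9% higher and 14.1% lower over all genes. Leaving out siQ61K DMSO replicate 1 or siNC poly(dA:dT) replicate 2 left 4 higher, and leaving out siQ61K DMSO replicate 3 or siNC poly(dA:dT) replicate 3 left 5, with 1 lower member without siQ61K DMSO replicate 3. SOD2, the mitochondrial superoxide dismutase, had 149, 137 and 192 TPM in the siQ61K DMSO libraries, against 47.95, 51.4 and 49.2 TPM in the siNC poly(dA:dT) libraries (1.65, SE 0.14, adjusted p = 5.16e-06). TRAF1, an adaptor of TNF receptors, was higher (1.13, SE 0.22, adjusted p = 0.00316). Of 12 tested acute-phase and complement genes, 6 were higher and 1 lower (median 0.76). The serum amyloid gene SAA1 had 19.1, 15.6 and 15.3 TPM with siQ61K DMSO, against 1.34, 0.226 and 0.824 TPM with siNC poly(dA:dT) (3.34, SE 0.31, adjusted p = 1.39e-05). SAA2, its close copy, had 10.7, 12.03 and 9.33 TPM with siQ61K DMSO, against 0, 1.3 and 1.14 TPM with siNC poly(dA:dT), and reads may have been split between the 2 genes. CD55, which protects cells from complement, was the lower member (-0.71, SE 0.15, adjusted p = 0.00435). The 9 higher calls among 22 and the 6 among 12 stand against 13.7% of all genes tested. CFI, a complement factor among the 6, is named here because the minimum for testing fixed its direction. It had 2.8, 2.02 and 3.07 TPM with siQ61K DMSO, against 0.603, 0.341 and 0.153 TPM with siNC poly(dA:dT).

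Of the ERK target genes that differed, most were lower with siQ61K DMSO. Of 34 tested ERK pathway target and feedback genes, 18 were lower, 6 higher and 10 not called, with a median of -0.53. All genes tested gave 9.47% lower and 13.7% higher. After the correction for GC content and length 23 were lower and 6 higher, against 14.1% and 12.9% of all genes. SPRY2, a Sprouty protein that restrains RAS signalling, had 21.2, 19.3 and 22.5 TPM in the siQ61K DMSO libraries, against 69.3, 68.2 and 72.7 TPM in the siNC poly(dA:dT) libraries. The difference was -1.70, SE 0.11, adjusted p = 5.35e-07, and siNC DMSO stood at 73.01, 74.6 and 67.1 TPM, beside siNC poly(dA:dT). DUSP1, a phosphatase of MAP kinases, had 17.4, 15.9 and 18.9 TPM with siQ61K DMSO, against 79.1, 66.6 and 67.99 TPM with siNC poly(dA:dT) (-1.97, SE 0.12, adjusted p = 2.69e-07). ETV4 (-1.32, SE 0.15, adjusted p = 5.33e-05) and ETV5 (-1.12, SE 0.11, adjusted p = 2.7e-05), transcription factors whose genes ERK induces, were lower. FOSL1, a FOS family member stabilised by ERK, had 138, 133 and 165 TPM with siQ61K DMSO, against 319, 309.7 and 342 TPM with siNC poly(dA:dT) (-1.15, SE 0.12, adjusted p = 2.96e-05), and SPRY4 was lower too (-0.93, SE 0.18, adjusted p = 0.00296). DUSP6, an ERK phosphatase, stayed under the minimum in these libraries, at 0.965, 0.264 and 0.103 TPM with siQ61K DMSO, against 0.573, 0.578 and 1.01 TPM with siNC poly(dA:dT).

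The 6 higher members of that list were 3 without siNC poly(dA:dT) replicate 2. DUSP8, a phosphatase of stress kinases, had 7.02, 9.11 and 8.02 TPM with siQ61K DMSO, against 2.27, 1.54 and 2.28 TPM with siNC poly(dA:dT) (1.58, SE 0.22, adjusted p = 0.00032). JUNB was higher (0.72, SE 0.17, adjusted p = 0.00989). MYC had 54.7, 46.4 and 56.2 TPM with siQ61K DMSO, against 33.4, 32.9 and 31.5 TPM with siNC poly(dA:dT) (0.67, SE 0.12, adjusted p = 0.00142), and the siNC DMSO libraries had 27.1, 30.7 and 28.6 TPM. CCND1, the cyclin of early G1, lay within 0.5, with an interval of -0.47 to 0.23. The list was drawn up with earlier results of these libraries known and is no independent evidence of a direction.

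The pathway's own components were called about as often as all genes. Of 34 tested RAS and RAF pathway components, 3 were higher and 4 lower, a share of 20.6% against 23.2% of all genes tested, and 9 had intervals within 0.5. Beside NRAS, the largest decrease was in RASA2, a GTPase-activating protein of RAS (-0.62, SE 0.20, adjusted p = 0.0354). This call was lost without siQ61K DMSO replicate 1 or 2 or siNC poly(dA:dT) replicate 2 or 3. MAP2K2, which encodes the kinase MEK2, was higher, with 377, 371 and 339 TPM with siQ61K DMSO, against 242, 238 and 204 TPM with siNC poly(dA:dT) (0.67, SE 0.12, adjusted p = 0.00159). MAP2K1, which encodes MEK1, went the other way by limma (-0.53, SE 0.11, adjusted p = 0.0035) and was named after its value was seen. SOS1, an exchange factor that loads RAS with GTP, was not called (0.32, SE 0.24, adjusted p = 0.366). Of 28 tested EGF family ligands and growth factor receptors, 4 were higher and 4 lower, 28.6% called against 23.2% of all genes tested. TGFA, a ligand of the EGF receptor, had 22.6, 20.7 and 28.7 TPM with siQ61K DMSO, against 60.9, 64.6 and 66.3 TPM with siNC poly(dA:dT) (-1.39, SE 0.14, adjusted p = 2.7e-05). VEGFA, the vascular growth factor, was lower (-0.90, SE 0.15, adjusted p = 0.00123). EPHB2, an ephrin receptor, had 105, 82.6 and 143 TPM with siQ61K DMSO, against 38.3, 38.2 and 46.4 TPM with siNC poly(dA:dT) (1.38, SE 0.23, adjusted p = 0.00111), and PDGFB, a ligand of the PDGF receptor, was higher (1.31, SE 0.29, adjusted p = 0.00564).

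**Figure D3:**
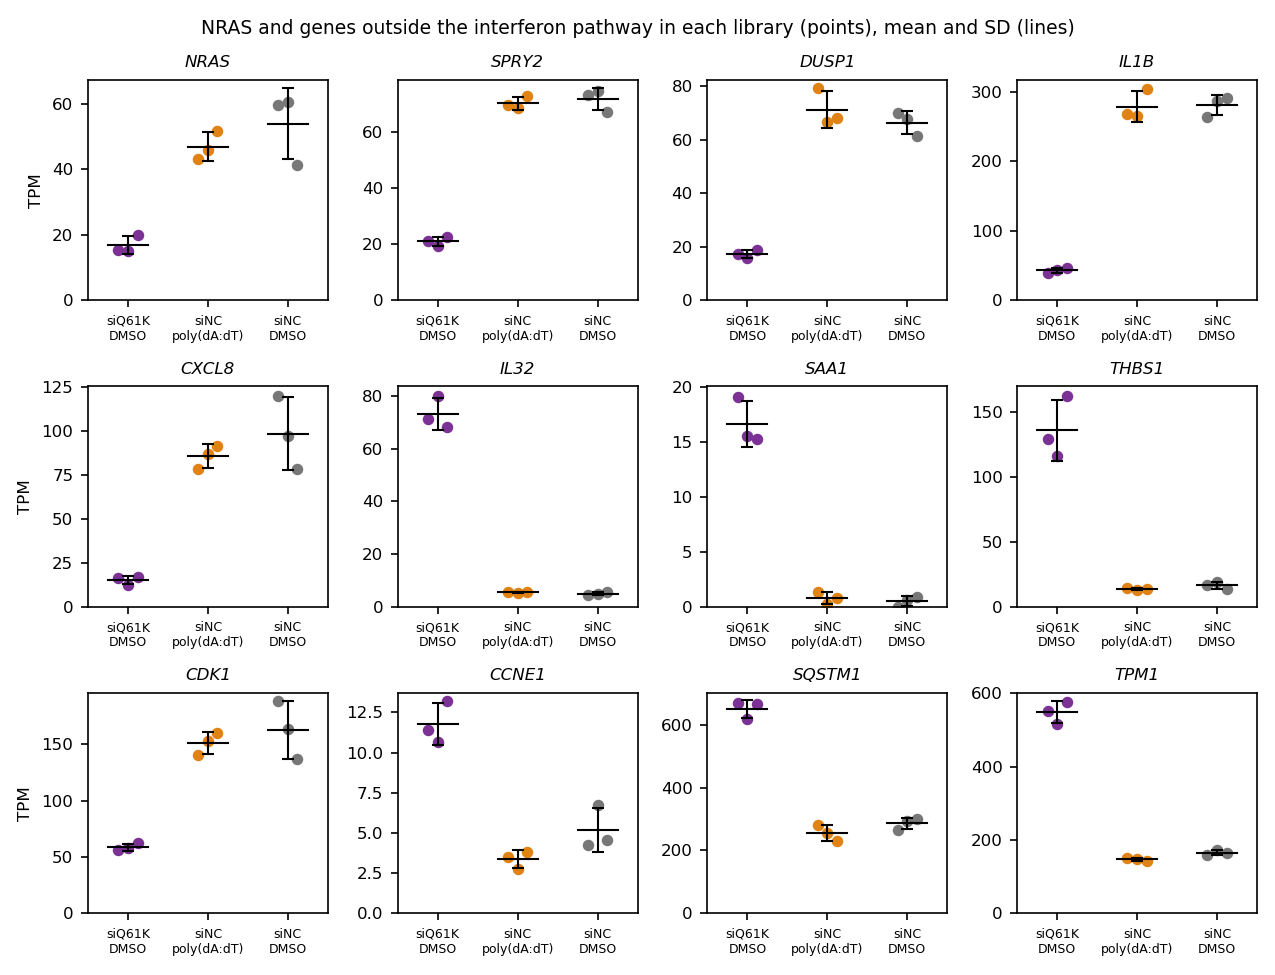
TPM of NRAS and 11 genes outside the interferon pathway in each library (points) with the mean and SD of each group (lines), n = 3 per group, on linear axes from 0. In all 12 panels the siQ61K DMSO libraries do not overlap the siNC poly(dA:dT) libraries, and NRAS is at 15.2 to 19.9 TPM with siQ61K DMSO against 43.0 to 51.7 TPM with siNC poly(dA:dT).

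Mitosis genes were lower with siQ61K DMSO almost throughout. Of 45 tested members, 44 were lower and none higher by limma (45 and 0 at an unadjusted p below 0.05), against 9.47% lower over all genes, and the median log2 difference was -1.04. Whichever library was left out, 41 to 45 were lower. CDK1, the kinase that drives entry into mitosis, had 55.9, 58.2 and 61.98 TPM in the siQ61K DMSO libraries, against 140.4, 153 and 160.3 TPM in the siNC poly(dA:dT) libraries (-1.35, SE 0.14, adjusted p = 2.82e-05). CCNB1, its cyclin partner, had 112, 115 and 120.1 TPM with siQ61K DMSO, against 269, 276 and 295 TPM with siNC poly(dA:dT) (-1.27, SE 0.11, adjusted p = 1.12e-05). PTTG1, securin, which delays the separation of sister chromatids until anaphase, had 165, 168 and 156 TPM with siQ61K DMSO, against 467, 446 and 431 TPM with siNC poly(dA:dT) (-1.45, SE 0.12, adjusted p = 3.91e-06). NUF2, a subunit of the outer kinetochore, was lower (-1.46, SE 0.19, adjusted p = 0.00019). In siNC DMSO, CDK1 stood at 188, 163 and 136 TPM and CCNB1 at 343, 331 and 291 TPM, above every siQ61K DMSO library. Fewer cells in mitosis and less mRNA per mitotic cell cannot be told apart in such bulk samples, and the same holds for every gene group here.

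Many mitosis promoters carry the CHR, often near a CCAAT box. RefSeq promoters matched 37 of the 45 genes, and TTTGAA was found in 19 of them (51.4%), against 8.32% of the promoters of tested genes and 13.6% of all in the table. CCAAT was in 25 of the 37 (67.6%), against 35.4% of the promoters of tested genes and 33.0% of all. Promoters of PLK1 (chr16:23678639-23678888, plus strand) and CCNB2 (chr15:59104896-59105145, plus strand) are shown with the CHR in capitals, because in both it begins 29 bases before the start. These genes were picked for their promoters after values were seen.
PLK1: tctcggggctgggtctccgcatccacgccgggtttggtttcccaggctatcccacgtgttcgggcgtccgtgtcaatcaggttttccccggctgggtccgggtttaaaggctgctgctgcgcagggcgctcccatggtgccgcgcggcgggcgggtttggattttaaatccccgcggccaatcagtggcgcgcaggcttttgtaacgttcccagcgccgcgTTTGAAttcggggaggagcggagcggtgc
CCNB2: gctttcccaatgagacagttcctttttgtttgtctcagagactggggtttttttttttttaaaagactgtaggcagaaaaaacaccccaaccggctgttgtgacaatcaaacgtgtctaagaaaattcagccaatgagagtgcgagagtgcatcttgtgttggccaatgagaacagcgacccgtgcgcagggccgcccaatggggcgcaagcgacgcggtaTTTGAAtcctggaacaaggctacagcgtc
PLK1, a kinase of spindle assembly, had 71.6, 75.1 and 83.7 TPM with siQ61K DMSO, against 167, 157 and 170.4 TPM with siNC poly(dA:dT) (-1.09, SE 0.14, adjusted p = 0.000119). CCNB2, the second B-type cyclin, had 33.8, 33.9 and 39.9 TPM with siQ61K DMSO, against 89.2, 91.8 and 90.7 TPM with siNC poly(dA:dT) (-1.32, SE 0.10, adjusted p = 2.9e-06).

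The earlier parts of the cell cycle differed less evenly. Of 42 tested DNA replication and S-phase genes, 18 were lower and 2 higher, with a median of -0.37. RFC4, a clamp loader subunit (-0.83, SE 0.17, adjusted p = 0.00347), and LIG1, the ligase that joins Okazaki fragments (-0.83, SE 0.16, adjusted p = 0.00239), were lower. Without siQ61K DMSO replicate 1 or siNC poly(dA:dT) replicate 2 the lower members were 11, and without siQ61K DMSO replicate 2 they were 10. The 2 higher members act at entry into S phase. CCNE1, cyclin E1, had 11.4, 10.7 and 13.2 TPM with siQ61K DMSO, against 3.51, 2.77 and 3.84 TPM with siNC poly(dA:dT) (1.55, SE 0.18, adjusted p = 7.13e-05), and CDC25A, the phosphatase that activates its kinase, was higher (0.68, SE 0.22, adjusted p = 0.0428). The call of CDC25A was lost when any library but siQ61K DMSO replicate 2 was left out. Over all genes tested, 9.47% were lower and 13.7% higher. Among 17 tested G1 cyclins, kinases and CDK inhibitors, 2 were lower and none higher by limma (3 and 2 at an unadjusted p below 0.05). They were CDKN2D, the inhibitor p19, at 10.4, 10.4 and 8.85 TPM with siQ61K DMSO, against 24.5, 20.8 and 20.2 TPM with siNC poly(dA:dT) (-1.07, SE 0.18, adjusted p = 0.00095), and CDK4 (-0.41, SE 0.13, adjusted p = 0.0374), whose call was lost whichever library was left out. Without siQ61K DMSO replicate 2 or siNC poly(dA:dT) replicate 3, 1 other member was higher. CDKN1A, the inhibitor p21, was not called and lay within 0.5 (interval -0.024 to 0.39). The G1 list's median of 0.031 became -0.045 under median-of-ratios scaling.

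Genes of the BCL2 family, which decide on the permeability of the mitochondrial outer membrane in cell death, were divided. Of 14 tested members, 4 were higher with siQ61K DMSO and 2 lower, against 13.7% higher and 9.47% lower over all genes tested. The higher ones promote cell death, led by BOK (1.32, SE 0.15, adjusted p = 7.43e-05) and BMF (1.21, SE 0.21, adjusted p = 0.00142). The lower ones protect from it: BCL2A1 had 9.65, 7.68 and 5.93 TPM with siQ61K DMSO, against 25.9, 28.1 and 29.6 TPM with siNC poly(dA:dT) (-1.74, SE 0.21, adjusted p = 8.22e-05), and MCL1 had 157, 149 and 197 TPM with siQ61K DMSO, against 259, 263 and 322 TPM with siNC poly(dA:dT) (-0.75, SE 0.13, adjusted p = 0.00114). Other members that promote cell death were not called, among them BAX (0.15), BAD (0.24), BCL2L11 (0.33), PMAIP1 (-0.11) and BID (-0.32). BCL2, which protects from it, was not called either (0.46). The calls therefore do not show a shift of the family as a whole.

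**Figure D4:**
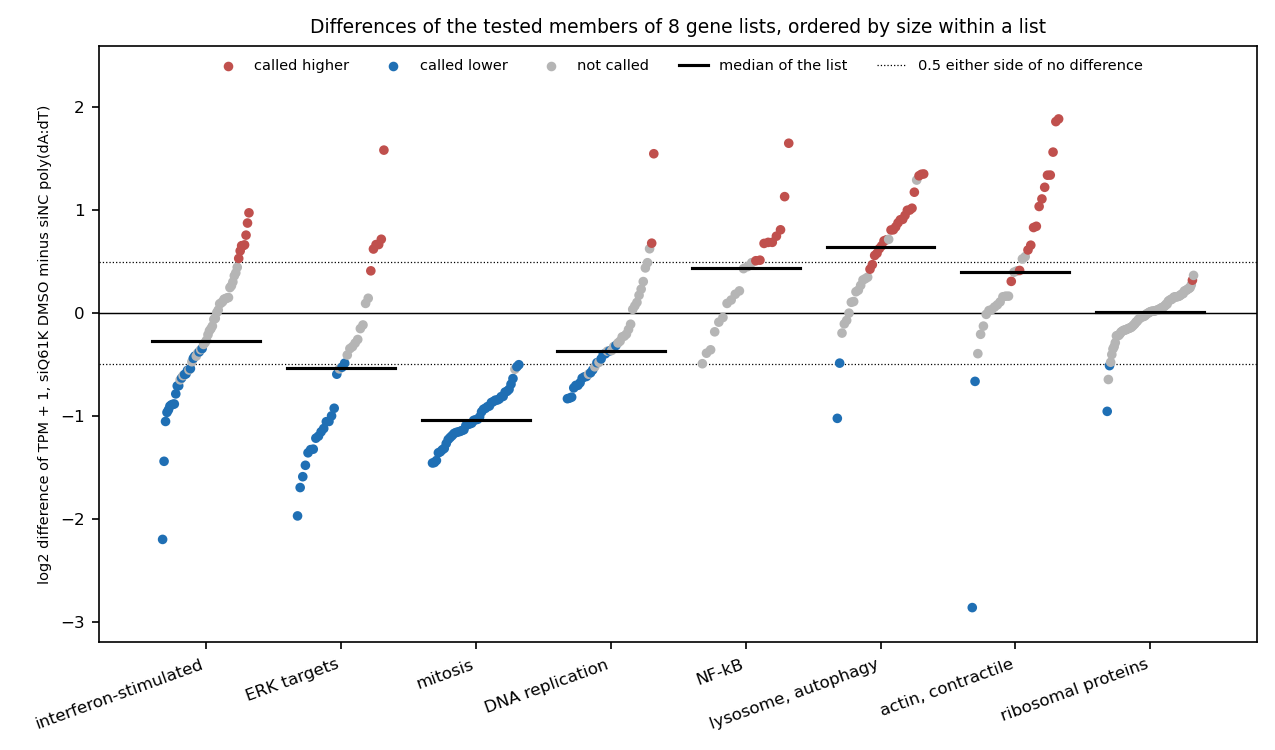
Log2 difference (siQ61K DMSO minus siNC poly(dA:dT), on TPM + 1) of every tested member of 8 gene lists, ordered within each list. Red points were called higher, blue lower and grey not called, black bars are list medians and dotted lines lie 0.5 either side of no difference. All mitosis points lie below 0 and most ribosomal protein genes lie between the dotted lines.

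Lysosome and autophagy genes that differed were higher with siQ61K DMSO, all but NPC1 and ATG5. Of 38 tested, 22 were higher and 2 lower (median 0.64), against 13.7% and 9.47% of all genes tested. After the correction for GC content and length 23 were higher and 3 lower, against 12.9% and 14.1% of all genes. SQSTM1, the autophagy receptor p62, had 668, 618 and 665 TPM in the siQ61K DMSO libraries, against 279.5, 256 and 229 TPM in the siNC poly(dA:dT) libraries (1.35, SE 0.11, adjusted p = 3.7e-06). The lower members were NPC1, the cholesterol exporter of the lysosome, with 122, 106 and 126 TPM with siQ61K DMSO, against 215, 247 and 262 TPM with siNC poly(dA:dT) (-1.02, SE 0.17, adjusted p = 0.000825), and ATG5, an autophagy conjugation protein (-0.49, SE 0.15, adjusted p = 0.0304). The call of ATG5 was lost when any library but siNC poly(dA:dT) replicate 1 was left out.

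The E-box CACGTG is the core of the element through which the TFEB family acts on lysosomal genes. It was present in 8 of the 29 lysosome and autophagy promoters matched (27.6%), against 9.06% of the promoters of tested genes and 6.49% of all in the table. All 8 belonged to the 16 matched members that were higher with siQ61K DMSO, and none to the 11 not called or the 2 lower. With such small numbers this is a description of these promoters. Those of GAA (chr17:80101331-80101580, plus strand) and CTSD (chr11:1763928-1764177, minus strand), picked after values were seen, are shown with the E-box in capitals.
GAA: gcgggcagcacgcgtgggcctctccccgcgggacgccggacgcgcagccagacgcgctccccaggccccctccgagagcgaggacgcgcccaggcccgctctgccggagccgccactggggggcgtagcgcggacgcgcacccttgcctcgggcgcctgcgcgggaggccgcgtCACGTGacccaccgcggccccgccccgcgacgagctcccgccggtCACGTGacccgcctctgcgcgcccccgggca
CTSD: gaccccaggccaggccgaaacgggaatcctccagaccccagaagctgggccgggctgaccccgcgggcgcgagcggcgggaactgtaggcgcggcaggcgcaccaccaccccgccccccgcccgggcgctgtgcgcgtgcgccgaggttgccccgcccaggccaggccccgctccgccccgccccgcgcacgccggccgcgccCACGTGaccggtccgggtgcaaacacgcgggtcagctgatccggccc
GAA, the lysosomal glucosidase that breaks down glycogen, had 46.7, 42.2 and 57.1 TPM with siQ61K DMSO, against 21.3, 18.6 and 16.1 TPM with siNC poly(dA:dT) (1.33, SE 0.16, adjusted p = 9.52e-05). CTSD, the protease cathepsin D, had 429, 414 and 391 TPM with siQ61K DMSO, against 258, 192 and 175 TPM with siNC poly(dA:dT) (1.00, SE 0.15, adjusted p = 0.000503). The first E-box begins 76 bases before the start in GAA, which has 2, and 47 bases before it in CTSD.

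Sterol synthesis and hypoxia-inducible genes that differed were mostly lower. Of 33 tested genes of sterol and fatty acid synthesis, 13 were lower with siQ61K DMSO and 2 higher (median -0.28). All genes tested gave 9.47% lower and 13.7% higher. INSIG1, which holds the sterol sensor back and is itself induced when sterols run low, had 80.1, 70.7 and 82.3 TPM in the siQ61K DMSO libraries, against 176, 184 and 183 TPM in the siNC poly(dA:dT) libraries (-1.21, SE 0.11, adjusted p = 7.94e-06). IDI1, an enzyme of isoprenoid synthesis, was lower (-1.14, SE 0.14, adjusted p = 0.000101). The 2 higher members were LSS, lanosterol synthase (0.70, adjusted p = 0.00369), and SCAP, the escort of the sterol-regulated transcription factors (0.61, adjusted p = 0.00433). Of 35 tested glycolysis and hypoxia-inducible genes, 13 were lower and 2 higher, against 9.47% and 13.7% of all genes tested. The list's median was -0.24, with 10 members within 0.5. CA9, a carbonic anhydrase induced by hypoxia, had 11.04, 11.9 and 9.18 TPM with siQ61K DMSO, against 39.7, 32.98 and 27.7 TPM with siNC poly(dA:dT) (-1.55, SE 0.27, adjusted p = 0.00132). ANKRD37, another hypoxia-induced gene, was lower (-1.22, SE 0.17, adjusted p = 0.000266). The glucose transporter SLC2A1 (0.58, SE 0.15, adjusted p = 0.0131) and the phosphofructokinase PFKM (0.76, SE 0.19, adjusted p = 0.0117) were higher, and neither was called without siQ61K DMSO replicate 3 or without siNC poly(dA:dT) replicate 2.

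Of 31 tested endoplasmic reticulum stress and ATF4 targets, 7 were lower with siQ61K DMSO and 1 higher, a share of 25.8% called against 23.2% of all genes tested. The correction for GC content and length gave 12 lower and 2 higher, against 14.1% and 12.9% of all genes. ASNS, asparagine synthetase, had 28.96, 29.4 and 30.1 TPM with siQ61K DMSO, against 80.2, 83.4 and 89.8 TPM with siNC poly(dA:dT) (-1.49, SE 0.13, adjusted p = 5.96e-06), and PHGDH, the first enzyme of serine synthesis, was lower (-0.91, SE 0.18, adjusted p = 0.0029). HSPA5, the chaperone BiP, was the higher member (0.32, SE 0.10, adjusted p = 0.0289), a call lost whichever library was left out. Of 43 tested ribosome biogenesis genes, 5 were higher and 5 lower, 23.3% called and so near the share of all genes tested, and 17 lay within 0.5. The higher ones included POLR1A, the large subunit of RNA polymerase I (0.95, SE 0.22, adjusted p = 0.00684), and RRP12 (0.52, SE 0.14, adjusted p = 0.0173), and the lower ones DDX10 (-0.65, SE 0.14, adjusted p = 0.00605) and NHP2 (-0.48, SE 0.15, adjusted p = 0.0319). RRP12 was not called after the correction (0.24, adjusted p = 0.12), nor without siQ61K DMSO replicate 3 or siNC poly(dA:dT) replicate 2, and NHP2 was not called without siQ61K DMSO replicate 2 or 3 or siNC poly(dA:dT) replicate 1 or 2. Leaving out 1 library left as few as 2 higher and 2 lower members.

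Most cytosolic ribosomal protein genes were alike in the 2 groups at this precision. Of 76 tested, 54 had intervals within 0.5 (71.1%, against 19.9% of all genes), 1 was higher and 2 were lower. RPL3 was higher (0.32, SE 0.10, adjusted p = 0.0327), and RPL21 (-0.96, SE 0.31, adjusted p = 0.0393) and RPS27 (-0.51, SE 0.14, adjusted p = 0.0159) were lower. The calls of RPL3 and RPL21 were lost after the correction for GC content and length. So were they when most single libraries were left out (all but siQ61K DMSO replicate 3 for RPL3 and all but siQ61K DMSO replicate 1 for RPL21), and that of RPS27 was lost without siQ61K DMSO replicate 1 or siNC poly(dA:dT) replicate 1. These genes have many near-identical pseudogenes. Of 13 mitochondrially encoded mRNAs tested, limma called none, and 2 were higher and 2 lower at an unadjusted p below 0.05. Without siQ61K DMSO replicate 1 limma called 1 higher and 1 lower, and without siNC poly(dA:dT) replicate 3 it called 1 higher. Their median was 0.22, and 1 of them lay within 0.5.

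Of the matrix genes that differed, more were higher than lower with siQ61K DMSO on the deposited values, but not after the correction for GC content and length. Of 28 tested collagen chains and matrix proteins, 10 were higher and 3 lower, against 13.7% and 9.47% of all genes tested. The correction changed this split to 5 and 5, against 12.9% and 14.1% of all genes. Without siQ61K DMSO replicate 3, 6 were higher. SPARC, a collagen-binding glycoprotein, had 2735, 2709 and 3308 TPM in the siQ61K DMSO libraries, against 1091, 1074 and 1165 TPM in the siNC poly(dA:dT) libraries (1.39, SE 0.14, adjusted p = 2.66e-05). FBN1, the main protein of microfibrils, was higher (1.24, SE 0.14, adjusted p = 7.47e-05). The lower ones were LAMA4, a laminin chain (-1.24, SE 0.15, adjusted p = 0.000102), COL13A1, a membrane collagen (-0.91, SE 0.17, adjusted p = 0.00251), and FN1, fibronectin (-0.46, SE 0.12, adjusted p = 0.0152), whose call was lost without siQ61K DMSO replicate 1 or without siNC poly(dA:dT) replicate 1. Of 36 tested matricellular and TGF-beta pathway genes, 13 were higher and 6 lower, and after the correction 11 were higher and 12 lower. The shares of all genes given for the collagen list hold here too. THBS1, thrombospondin 1, an activator of latent TGF-beta, had 129, 116 and 162 TPM with siQ61K DMSO, against 14.6, 12.7 and 13.6 TPM with siNC poly(dA:dT) (3.21, SE 0.14, adjusted p = 2.57e-08). CCN5, a matricellular protein, was listed at 0 in all 3 siNC poly(dA:dT) libraries and at 5.77, 7.21 and 7.89 TPM in siQ61K DMSO. ID1, an inhibitor of differentiation factors that BMPs induce, had 151, 144 and 129 TPM with siQ61K DMSO, against 584, 506 and 430.4 TPM with siNC poly(dA:dT) (-1.83, SE 0.12, adjusted p = 5.31e-07). LTBP1, which tethers latent TGF-beta to the matrix, was lower (-0.93, SE 0.17, adjusted p = 0.00164).

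Actin and contractile genes were higher in 14 of 32 tested members and lower in 2 (median 0.40), against 13.7% and 9.47% of all genes tested. After the correction 13 were higher and 5 lower, against 12.9% and 14.1% of all genes. TPM1, a tropomyosin of actin filaments, had 552, 517 and 577 TPM in the siQ61K DMSO libraries, against 151, 148 and 143 TPM in the siNC poly(dA:dT) libraries (1.89, SE 0.081, adjusted p = 2.57e-08). MYL9, a myosin light chain, had 116, 105 and 93.4 TPM with siQ61K DMSO, against 37.7, 30.1 and 19.3 TPM with siNC poly(dA:dT) (1.86, SE 0.28, adjusted p = 0.000457). The lower members were TPM3, another tropomyosin (-0.66, SE 0.10, adjusted p = 0.00065), and FHL1, a LIM domain protein, with 4.52, 1.81 and 9.96 TPM with siQ61K DMSO, against 52.8, 33.9 and 33.8 TPM with siNC poly(dA:dT) (-2.86, SE 0.48, adjusted p = 0.00104). Of 14 tested integrin subunits, 5 were lower and 2 higher, against 9.47% lower and 13.7% higher over all genes tested. The lower ones were 2 or 3 when siQ61K DMSO replicate 1 or 2 or any siNC poly(dA:dT) library was left out. ITGB1, the beta subunit shared by most integrins, had 277, 262 and 347 TPM with siQ61K DMSO, against 670.3, 704 and 823 TPM with siNC poly(dA:dT) (-1.31, SE 0.13, adjusted p = 2.56e-05). ITGA6, a laminin receptor subunit, was lower (-0.98, SE 0.17, adjusted p = 0.00118). ITGA3 had 667, 615 and 877 TPM with siQ61K DMSO, against 354, 336 and 386 TPM with siNC poly(dA:dT) (0.99, SE 0.17, adjusted p = 0.00108), and ITGAV was higher (0.75, SE 0.19, adjusted p = 0.0137), a call lost without siQ61K DMSO replicate 3. Of 20 tested matrix proteases and genes of plasminogen activation, 5 were higher and 6 lower, against 13.7% and 9.47% of all genes tested. After the correction they were 9 and 9, against 12.9% and 14.1% of all genes. MMP2, a gelatinase, had 162, 141 and 199 TPM with siQ61K DMSO, against 78.1, 79.7 and 78.02 TPM with siNC poly(dA:dT) (1.07, SE 0.13, adjusted p = 0.000102), and MMP24, a membrane-bound protease, was higher (1.40, SE 0.22, adjusted p = 0.000596). PLAUR, the urokinase receptor, had 136, 132 and 137 TPM with siQ61K DMSO, against 381, 321 and 323 TPM with siNC poly(dA:dT) (-1.33, SE 0.12, adjusted p = 8.78e-06), and the collagenase MMP1 was lower (-1.08, SE 0.21, adjusted p = 0.00235).

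Some markers of mesenchymal cells were abundant, as the label of a fibrosarcoma line has it. Of 11 tested mesenchymal markers, 4 were higher and 2 lower, against 13.7% and 9.47% of all genes tested. The summed level of the markers was 8813 to 11740 TPM with siQ61K DMSO and 7667 to 8431 TPM with siNC poly(dA:dT). VIM and SPARC made up most of these sums. VIM averaged 6501 TPM with siQ61K DMSO and 6271 TPM with siNC poly(dA:dT), overlapped and lay within 0.5. SPARC averaged 2918 and 1110 TPM, so the sums do not show a rise of the markers as a set. The collagen gene COL1A1, called higher (1.22, SE 0.40, adjusted p = 0.0426), was not called after the correction (0.85, adjusted p = 0.136), and ZEB1, a repressor of epithelial genes, was lower (-0.59, SE 0.18, adjusted p = 0.0307). The call of COL1A1 was lost when any siQ61K DMSO library or siNC poly(dA:dT) replicate 1 was left out, and that of ZEB1 without siQ61K DMSO replicate 1 or 2 or siNC poly(dA:dT) replicate 2 or 3. Leaving out any 1 siQ61K DMSO library left 2 of the 11 higher, and leaving out siQ61K DMSO replicate 1 or 2 or any siNC poly(dA:dT) library left 0 or 1 lower. COL3A1 and THY1, a fibroblast surface protein, were near 0. Of 23 markers of epithelial, endothelial, blood and muscle cells found in the table, 21 were under 1 TPM in all 6 libraries and 4 of them at 0, and the sums were 3.07 to 5.67 TPM with siQ61K DMSO and 3.41 to 5.49 TPM with siNC poly(dA:dT). The epithelial tight junction gene CLDN4 was the 1 tested among them and was not called.

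The largest differences of all belonged in part to genes already described. IL32, SAA1 and THBS1 were among the 10 highest, and BST2, CXCL8, FHL1 and IL1B among the 10 lowest. AGT, angiotensinogen, had 11.9, 13.5 and 14.1 TPM with siQ61K DMSO, against 0.393, 0.379 and 0.311 TPM with siNC poly(dA:dT) (3.38, SE 0.18, adjusted p = 1.21e-07). SSC4D, a scavenger receptor family member, had 25.2, 22.2 and 24.5 TPM with siQ61K DMSO, against 1.08, 1.32 and 1.12 TPM with siNC poly(dA:dT) (3.52, SE 0.19, adjusted p = 1.3e-07). The long non-coding RNA LINC02154 had 15.5, 17.4 and 16.4 TPM with siQ61K DMSO, against 0.666, 0.747 and 0.558 TPM with siNC poly(dA:dT) (3.39, SE 0.22, adjusted p = 5.68e-07). In these 3 genes the siNC DMSO values were also low, 0.128, 0.146 and 0.377 TPM for AGT, 1.09, 0.31 and 0.475 TPM for SSC4D and 0.264, 0.901 and 1.096 TPM for LINC02154. EIF4A3, a core protein of the exon junction complex, was listed at 34.4, 15.6 and 13.5 TPM with siQ61K DMSO, against 0.137, 0.515 and 0.617 TPM with siNC poly(dA:dT) (3.86, SE 0.34, adjusted p = 8.78e-06). This entry is uncertain too, being near 0 in 1 group and uneven in the other. Whether it gives the whole level of the gene was not tested.

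Several of the extreme entries are uncertain. SRP9P1 and FAM3C2P are pseudogenes that share sequence with their parent genes, and SRP9P1 was listed at 0 in every siNC poly(dA:dT) library and at 23.6, 63.2 and 3.89 TPM with siQ61K DMSO. FAM3C2P had 31.8, 15.7 and 45.9 TPM with siQ61K DMSO, against 5.45, 0.00999 and 0 TPM with siNC poly(dA:dT). AL590867.2 owed its place to 1 library, with 3.76, 220.0 and 2.49 TPM with siQ61K DMSO, against 0.717, 1.09 and 0 TPM with siNC poly(dA:dT), and lost its call under most alternatives. SCARNA13, a small Cajal body RNA, was listed at 0 in all 3 siQ61K DMSO libraries and at 15.7, 5.93 and 6.65 TPM with siNC poly(dA:dT). AC009133.2 was likewise listed at 0 with siQ61K DMSO and at 2.88, 3.703 and 9.26 TPM with siNC poly(dA:dT). The other unnamed loci among the 10 lowest were AC107308.1 (-3.04, adjusted p = 0.00204), AC024075.3 (-2.54, adjusted p = 0.00266), AC114546.3 (-2.25, adjusted p = 0.0496) and AL160314.2 (-2.14, adjusted p = 0.0148). AC114546.3 was not called after the GC content and length correction (-1.86, adjusted p = 0.145). Of these entries, FAM3C2P lost its call without siQ61K DMSO replicate 3 or siNC poly(dA:dT) replicate 2 or 3, AL160314.2 without siQ61K DMSO replicate 3 or siNC poly(dA:dT) replicate 2, AC009133.2 when any library but siNC poly(dA:dT) replicate 1 was left out and AC114546.3 when any but siQ61K DMSO replicate 2 was.

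The log2 differences were larger for transcripts of higher GC content. Across 13707 genes with a known value, Spearman's rho was 0.309 for GC content and 0.0828 for length (across genes, which are not independent replicates). With the tested genes in 4 equal bins by GC content, in the lowest bin 178 were higher and 514 lower, and in the highest 801 were higher and 152 lower. After a lowess correction for GC content and length within libraries, 3702 genes were called (27.0%), 1763 higher and 1939 lower, and rho with GC content was 0.0505. Of the 3190 genes called on the deposited values, 2645 were called in the same direction after the correction and none in the opposite one. Of the 130 named genes that were called, 120 were also called after the correction. The part of base composition in these results was not tested beyond this correction.

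**Figure D5:**
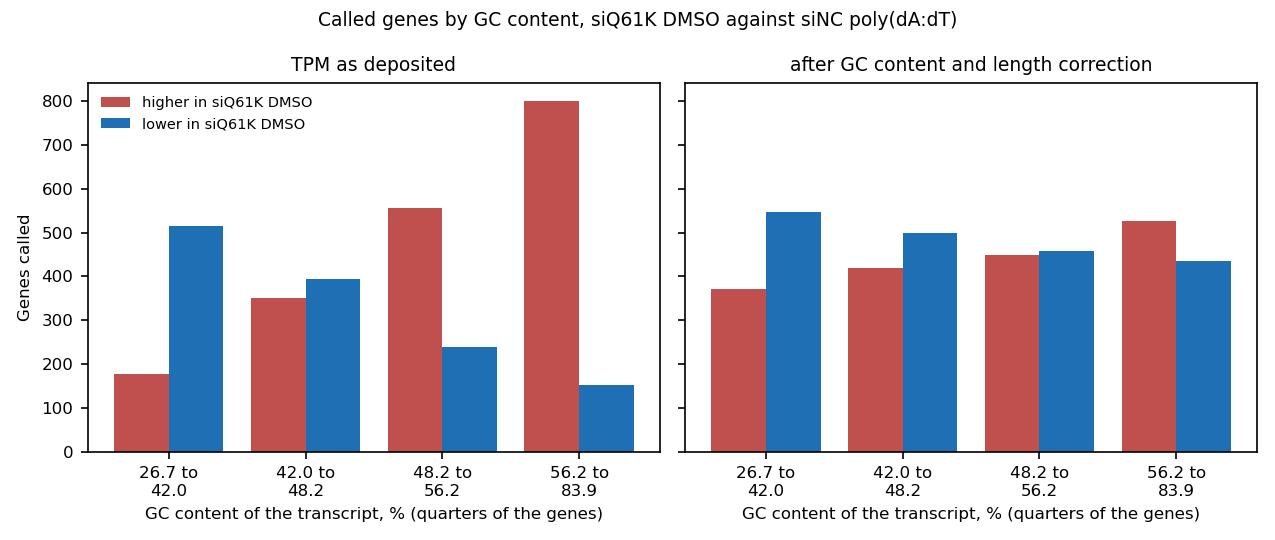
Number of genes called higher (red) and lower (blue) with siQ61K DMSO, in 4 equal bins of the tested genes by GC content of the transcript, before (left) and after (right) the correction for GC content and length. Higher calls outnumber lower calls by 801 to 152 in the bin of highest GC content as deposited, and by 526 to 435 after the correction.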

How the data were processed

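RNA-seq of 12 HT1080 libraries in 4 groups of 3 was deposited by the authors as 1 table of TPM per gene symbol, with no counts. Per the labels' protocols, libraries were made from total RNA with a NEBNext Ultra kit and sequenced on an Illumina NovaSeq, and per the submitters' processing notes Salmon 0.8.0 and hg19 were used. The annotation is not given in the sources used here. Table columns carry short names, and their match to the sample titles is an inference from those names. Of 56227 entries, 984 that shared 58 symbols were left out. Columns summed to 964007 to 967331 TPM.

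Genes that reached 1 TPM in 3 or more of the 6 libraries compared were tested on log2(TPM + 1) by limma (version 3.58.1, under R 4.3.3). The fit had a variance trend, all 12 libraries and 4 groups in 1 fit, and Benjamini-Hochberg adjustment at 0.05. Deviations of same-numbered libraries correlated at 0.157, 0.0526 and 0.280, and those of differently numbered ones at -0.238 to 0.134. Whether replicate numbers pair the libraries is not known, and the main fit treated them as unpaired. GC content and length came from GENCODE release 29, for 13707 genes (99.7%), and promoters from RefSeq, whose build differs from hg19, so no position is given for the files' values. In simulated data for this comparison (13752 genes, 200 changed), 98.5% of changes of 2, 58.2% of 1 and 9.09% of 0.5 were recovered, with 2 false calls. The simulated spread was independent between genes and had no GC content gradient, and far fewer genes changed than the 3190 called. These figures check the fit and do not give its recovery or false calls in the data.

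The text names NRAS, the 10 highest and 10 lowest called genes that average 5 TPM or more in 1 of the groups and do not overlap, up to 2 called members a direction of each of 30 gene lists, a fixed set of genes, and the 10 most abundant interferon-stimulated genes. The comparison, the lists (978 symbols) and the rule were chosen with earlier results of these data known. Exceptions are stated where they occur. Some of these genes and 1 list are not reported here. Alternatives were other pseudocounts, filters, scalings and variance models, sample weights, a replicate block, a lowess correction for GC content and length (span 0.3) and leaving out each library.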

Additional observations from a re-analysis of the deposited data

How the results depend on the processing

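The counts of called genes (3190, with 1888 higher and 1302 lower) stayed within 1.5 times under every alternative tried except sample weights, which called 6421 (3574 higher, 2847 lower), and some fits with a library left out. Leaving out 1 library gave 2100 to 2608 called, 1246 to 1659 higher, 837 to 1272 lower and 1818 to 2355 within 0.5, with 2 libraries left in that group. Counts beyond 1.5 times were 2117 called and 837 lower without siQ61K DMSO replicate 1, 2100 called, 1246 higher, 854 lower and 1818 within 0.5 without siNC poly(dA:dT) replicate 2, and 849 lower without siNC poly(dA:dT) replicate 3. The count within 0.5 (2738) was 6499 with a pseudocount of 5 TPM, 11250 with no filter, 4835 with sample weights, 4482 with the GC content and length correction and 4393 with that correction and the replicate block. The replicate block alone gave 3023 called, 1809 higher and 1214 lower, with 2607 within 0.5. Each siNC poly(dA:dT) library correlated best with the siQ61K DMSO library of the same number. In the other direction, siQ61K DMSO replicate 2 correlated best with siNC poly(dA:dT) replicate 1 (0.134, against 0.0526 with its own number). A pairing of these libraries is therefore neither shown nor excluded.

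Of 130 named genes called, 100 were called under every alternative and 120 after the correction. Among values called in 1 of 2 settings, 7 changed sign, all in siQ61K DMSO against siNC DMSO: with the correction HRAS became -0.24, and with it, with or without the replicate block, B2M became 0.26, CDKN1A -0.034 and LY6E -0.41. The cause was not tested. A further 181 sign changes were among values called under neither setting, and 284 list counts or medians moved. TPM keeps no depth, so what depth limits is unknown. A gene not called is not shown to be alike unless its interval lies within 0.5.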
